A study of Mus musculus with 203 samples.

Results

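The nucleus ambiguus (Amb) of the mouse medulla holds motor neurons of 2 kinds side by side, and 53 neurons of the ambiguus cardiopulmonary (ACP) type are compared here with 52 laryngeal neurons. A further 98 single neurons make up the rest of the series. Members were taken from the deposited annotation, by which a neuron is ACP or laryngeal according to its assigned cluster. These 98 ambiguus cardiovascular (ACV) neurons took no part in the tests, and their levels are given only as a description. All neurons came from wild-type C57BL/6 mice, of the substrain C57BL/6NCrl by the study's methods. Cholera toxin B, a tracer that is taken up at nerve endings and carried back to the cell body, was injected at postnatal day 1 into the pericardial space for ACP and ACV neurons and into the cricothyroid muscle of the larynx for laryngeal neurons. Labeled cell bodies were aspirated from brainstem slices at postnatal days 2 to 4 and sequenced singly by Smart-seq2, a method that copies whole transcripts into cDNA and amplifies it by PCR. Laryngeal neurons are defined by the injected muscle, whereas ACP and ACV neurons share the injection into the pericardial space and were separated by the study's clustering of these same counts. The 2 injections were made in separate mice, so differences between mice or injections and differences between neuron types cannot be told apart. The labels name neither mouse nor plate, so every p-value below measures the spread between these neurons and not between animals. Genes that split ACP from ACV neurons, such as Pappa2, may have helped to define the ACP cluster. Their p-values here may be too small for that reason.

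Preganglionic parasympathetic neurons, such as ACP neurons, send their axons to ganglia on or near an organ, where acetylcholine excites a further neuron that acts on the organ. Laryngeal motor neurons send their axons straight to striated muscle and release acetylcholine at neuromuscular junctions. Both use the same transmitter and both derive from the hindbrain, and they are classed as visceral and branchial motor neurons.

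Laryngeal neurons had shallower libraries and carried more ribosomal precursor sequence. Total counts ran from 854487 to 3175434 in ACP neurons (median 1918118) and from 542162 to 3292763 in laryngeal neurons (median 1389806). The gene Rn45s, the 45S ribosomal RNA precursor, took 37% ± 12.89 (SD, n = 53) of counts in ACP and 58.24% ± 15.73 (SD, n = 52) in laryngeal neurons (permutation test, two-sided, Benjamini-Hochberg adjusted p = 6.00e-05). Levels are therefore given as counts per 10000 counts of all other genes. Those other counts had medians of 1115375 in ACP and 560892 in laryngeal neurons (permutation test, two-sided, Benjamini-Hochberg adjusted p = 6.00e-05). Numbers and shares of neurons with a read are not thinned for this difference in depth unless stated. Genes detected did not pass the test, at 7884 ± 1944 (SD, n = 53) against 7386 ± 1960 (SD, n = 52; permutation test, adjusted p = 0.233). Apoe, which glia express strongly, had more than 1800 counts in 11 of 53 ACP neurons and in 0 of 52 laryngeal neurons, although the study's methods state that neurons above that limit were removed. A read of Xist, transcribed from the inactive X chromosome, was found in 34 of 53 ACP neurons and 14 of 52 laryngeal neurons. The part of Apoe, Rn45s and sex in the results was not tested beyond the alternatives given with them, which are reported as numbers of genes at the end.

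Markers of cholinergic cranial motor neurons were present in both groups. Slc18a3, the vesicular acetylcholine transporter, ran from 0.731 to 26.2 counts per 10000 with a median of 9.17 in ACP neurons and from 0.0192 to 45.5 with a median of 14.9 in laryngeal neurons, and the ranges overlapped widely (rank sum test, Bonferroni-adjusted p = 1). Isl1, a transcription factor of motor neurons, was detected in 49 of 53 ACP and 48 of 52 laryngeal neurons. Chat, which makes acetylcholine, was detected in 53 of 53 and 46 of 52. A group of 8 laryngeal neurons stood apart, however. In those neurons the summed level of 8 laryngeal genes (Calca, Calcb, Pnoc, Uts2, Dlk1, Lhx4, Gfra1 and Phox2a), as the natural log of counts per 10000 plus 1, reached at most 1.83, against 4.81 or more in the other 44. Their Slc18a3 had a median of 0.0903 counts per 10000, against 17.5 in the other 44, while their number of detected genes had a median of 8474 against 7594. They kept their label in every test, and no test is given without them because they stand apart by genes under test. Of the marker lists for astrocytes (11 genes tested), the oligodendrocyte lineage (12), microglia (10) and endothelial and mural cells (6), no gene passed the test. Summed astrocyte markers had a median of 21.2 counts per 10000 in ACP (2.06 to 106.3) and 27.96 in laryngeal neurons (9.35 to 170.6).

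Of 13257 genes with a read in 10% or more of the neurons of either group, 76 were higher in ACP neurons (0.573% of genes tested) and 47 were higher in laryngeal neurons (0.355%), together 0.928%, by a two-sided rank sum test on ln(counts per 10000 + 1) with Bonferroni adjustment over all 24029 genes. Without adjustment, 1689 genes leaned to ACP and 835 to laryngeal neurons at p under 0.05. The median difference over all genes tested was 0.00273 on the ln scale. The shares of 0.573%, 0.355% and 0.928% are the background for every number of list members called below. One of the 47 is Rn45s itself. No gene separated the groups completely, since the ranges of every called gene overlapped. These ranges run over all neurons, among them the 8 laryngeal neurons that stood apart, so a few neurons can make them overlap. The ACP neuron had the higher value in 70.8% to 94.4% of pairs of 1 ACP and 1 laryngeal neuron for the genes higher in ACP, with ties shared equally, and the laryngeal neuron in 73.3% to 94.7% for the others. By detection of at least 1 read, most differences were of degree. Of the 76 genes, 44 were detected in more than 50% of laryngeal neurons, and of the 47, 29 were detected in more than 50% of ACP neurons. Chgb lay just inside the threshold (adjusted p = 0.0499) and Ackr3 just outside (0.0533).

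**Figure D1:**
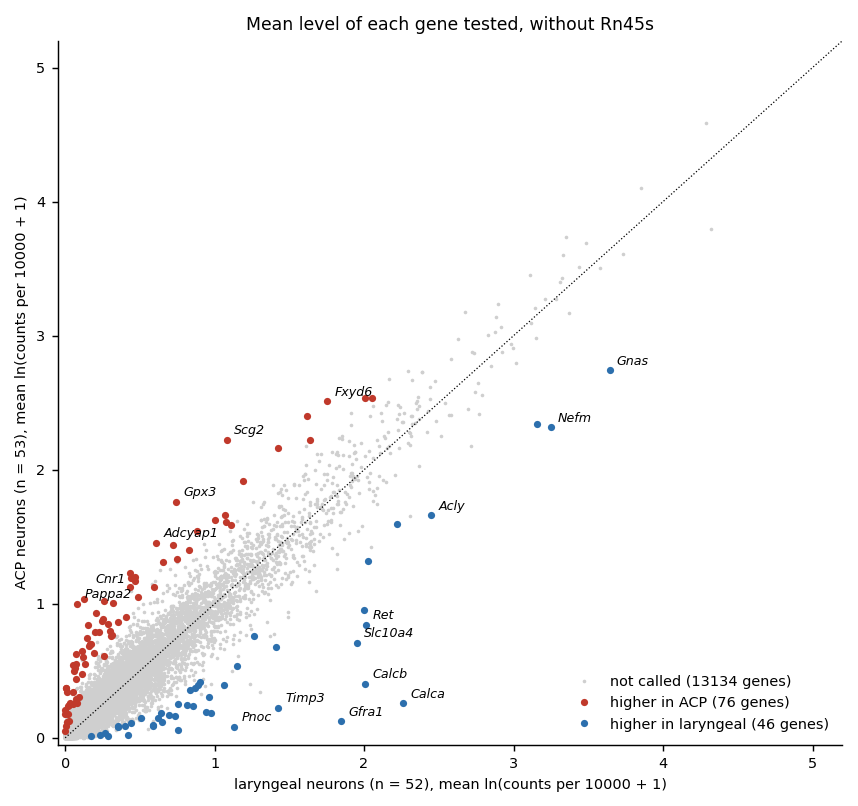
Mean ln(counts per 10000 + 1) of each gene tested in 52 laryngeal neurons (x axis) and 53 ACP neurons (y axis), without Rn45s, with the 76 genes higher in ACP in red, the 46 other genes higher in laryngeal neurons in blue and the dotted line where both means are equal. Called genes of high level, such as Gnas and Nefm, lie far from the origin, and most genes lie along the line.

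A receptor gene led the genes higher in ACP when ordered by p. Cnr1, the cannabinoid receptor CB1, which dampens transmitter release (chr4:33924593-33948831, plus strand), was detected in 52 of 53 ACP neurons and 25 of 52 laryngeal neurons. Its level ran from 0 to 10.3 counts per 10000 with a median of 1.91 in ACP and from 0 to 1.85 with a median of 0 in laryngeal neurons. ACP neurons were higher in 94.4% of pairs, by 0.906 ± 0.0792 (SE) on the ln scale, and 13.1-fold in mean level (adjusted p = 6.33e-11). In ACV neurons the level ran from 0 to 6.2 counts per 10000 with a median of 0.699, between the other types. Npy2r, the neuropeptide Y receptor Y2, was detected in 75.5% (95% Wilson interval 62.4 to 85.1%) of ACP neurons and 7.69% (95% Wilson interval 3.03 to 18.2%) of laryngeal neurons, and in 67.9% and 3.85% after every neuron was thinned to 118492 counts without Rn45s. Its mean level was 0.619 counts per 10000 in ACP and 0.00866 in laryngeal neurons (85.99% of pairs, adjusted p = 3.29e-08). These Wilson intervals cover counting error only, as the reads carry no molecular identifiers.

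Trhr, the receptor for thyrotropin-releasing hormone, ran from 0 to 8.26 counts per 10000 with a median of 1.11 in ACP neurons and from 0 to 1.77 with a median of 0 in laryngeal neurons (adjusted p = 0.0117). The Trhr call ended under 5 alternatives. Among them were neurons with at most 900 counts of Apoe (rank sum test, adjusted p = 0.214) and under 60% of counts on Rn45s (0.281). More laryngeal than ACV neurons held a Trhr read, 20 of 52 against 13 of 98. Adra2a, the alpha-2A adrenergic receptor, was detected in 45 of 53 ACP and 14 of 52 laryngeal neurons (adjusted p = 4.20e-04). Among 68 peptide and hormone receptors tested, Npy2r and Trhr were the 2 that were higher in ACP, and none was higher in laryngeal neurons. Among 32 monoamine, purine and cannabinoid receptors, Cnr1 and Adra2a were higher in ACP, and Htr3a, a subunit of the ionotropic serotonin receptor, was higher in laryngeal neurons, where 37 of 52 held a read against 15 of 53 ACP neurons (adjusted p = 0.00856). Tacr3 and Mc4r, which are also among the genes the study names, did not pass the test. Tacr3, the neurokinin 3 receptor, was detected in 34 of 53 ACP, 27 of 52 laryngeal and 9 of 98 ACV neurons (adjusted p for ACP against laryngeal = 1). Mc4r, the melanocortin 4 receptor, was detected in 39 of 53, 18 of 52 and 24 of 98 (adjusted p = 1). The difference of Mc4r on the ln scale, 0.194, had a 95% interval of 0.0750 to 0.313, and that of Tacr3, 0.165, of -0.0293 to 0.358.

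Of transmitter receptors, Grm5, the metabotropic glutamate receptor 5, was the single member of 24 glutamate receptor subunits that passed the test. Its level ran from 0 to 14.2 counts per 10000 with a median of 2.53 in ACP neurons and from 0 to 2.97 with a median of 0.435 in laryngeal neurons, 4.56-fold higher on average in ACP (adjusted p = 2.99e-05). Gabre, the epsilon subunit of the GABA-A receptor, was the single member of 20 GABA and glycine receptor subunits, with a read in 40 of 53 ACP and 6 of 52 laryngeal neurons (adjusted p = 1.17e-06). Gabre lies on the X chromosome. Among neurons with a Y-linked read and no Xist read, 18 ACP and 28 laryngeal, the ACP neuron was higher in 79.3% of pairs and the call ended (adjusted p = 1). In these fewer neurons, 11 of the 86 named genes past the threshold still passed, and all 86 kept their direction. Because these neurons are part of those that gave the calls, the kept direction is no independent evidence. None of 10 nicotinic and muscarinic receptor subunits passed the test.

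**Figure D2:**
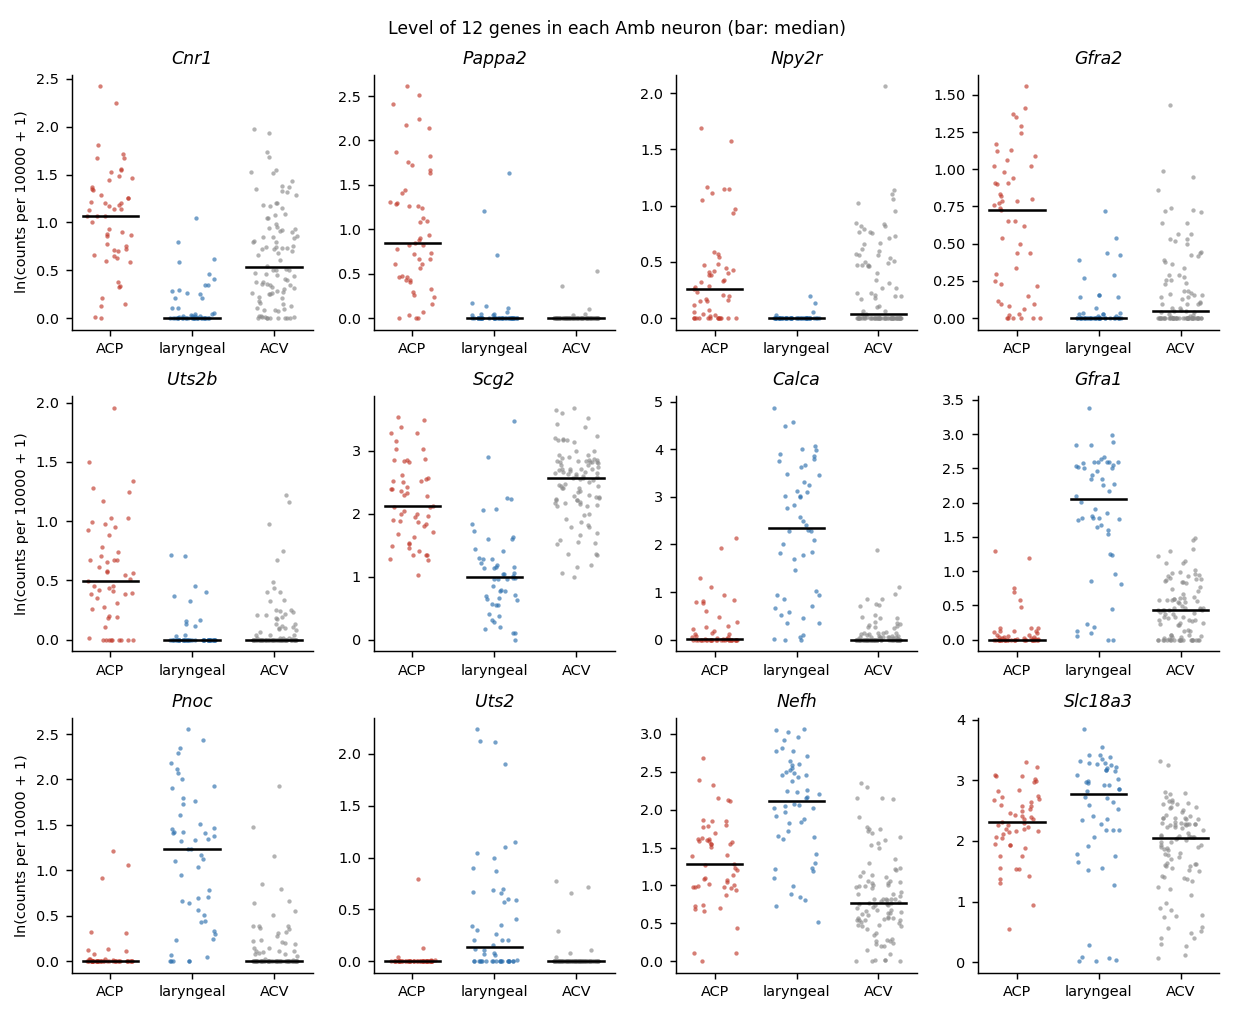
Level of 12 genes as ln(counts per 10000 + 1) in each of 53 ACP (red), 52 laryngeal (blue) and 98 ACV neurons (gray), where each point is 1 neuron and bars are medians. Points for Cnr1, Pappa2, Npy2r, Gfra2, Uts2b and Scg2 sit higher in ACP than in laryngeal neurons and those for Calca, Gfra1, Pnoc, Uts2 and Nefh lower, while Slc18a3 overlaps throughout.

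Receptors for the GDNF family of neurotrophic factors divided the groups by member. GDNF-family ligands bind a GFRα co-receptor, which then engages the tyrosine kinase Ret. Gfra1, the GDNF co-receptor (chr19:58235604-58455909, minus strand), had the smallest p of all genes. It ran from 0 to 2.65 counts per 10000 with a median of 0 in ACP neurons and from 0 to 28.6 with a median of 6.80 in laryngeal neurons, 40.8-fold higher on average in laryngeal neurons (ACP minus laryngeal -1.72 ± 0.133 (SE), adjusted p = 3.79e-11). Gfra2, the neurturin co-receptor (chr14:70890120-70979838, plus strand), went the other way. It ran from 0 to 3.75 counts per 10000 with a median of 1.06 in ACP neurons and from 0 to 1.05 with a median of 0 in laryngeal neurons, 11.5-fold higher in ACP (adjusted p = 3.61e-07). Ret was higher in laryngeal neurons, at 0 to 57.9 counts per 10000 with a median of 7.60 against 0 to 7.8 with a median of 1.26 in ACP (adjusted p = 3.98e-06). Counted by neuron, 25 of 53 ACP neurons held Gfra2 without Gfra1, and 32 of 52 laryngeal neurons held Gfra1 without Gfra2. Neurons with both numbered 22 and 18. In 98 ACV neurons both were found in 48, Gfra1 alone in 30 and Gfra2 alone in 8. Met, the hepatocyte growth factor receptor, was detected in 30 of 53 ACP and 7 of 52 laryngeal neurons (adjusted p = 0.0154). Of 30 neurotrophic factor receptors tested, Gfra2 and Met were higher in ACP, Gfra1 and Ret in laryngeal neurons, and 26 did not pass. A transcript antisense to Gfra1 overlaps its exons, and the strand setting of the counting is not given in the sources used here.

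Peptide precursors also differed by member, 4 of 33 higher in each group, beside 0.573% (ACP) and 0.355% (laryngeal) of all genes tested. Calca, the precursor of calcitonin and the alpha form of calcitonin gene-related peptide (chr7:114631478-114636357, minus strand), was higher in laryngeal neurons. It ran from 0 to 130.2 counts per 10000 with a median of 9.47 in laryngeal neurons and from 0 to 7.44 with a median of 0.00417 in ACP neurons, a 39.6-fold difference in means (adjusted p = 5.89e-09). Its neighbor Calcb, for the beta form (chr7:114718643-114723365, plus strand), ran from 0 to 77.8 counts per 10000 with a median of 9.17 in laryngeal and from 0 to 7.62 with a median of 0.178 in ACP neurons (adjusted p = 3.41e-05). The 2 genes are similar in sequence, and how reads shared between them were counted is not given in the sources used here. Both were detected together in 46 of 52 laryngeal and 21 of 53 ACP neurons. Pnoc, the precursor of nociceptin, was found in 47 of 52 laryngeal and 14 of 53 ACP neurons, with medians of 2.44 and 0 counts per 10000 (adjusted p = 7.63e-10).

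The paralogous precursors Uts2 and Uts2b, which yield urotensin II and urotensin II-related peptide for the same receptor, were split. Uts2b was detected in 83.02% (95% Wilson interval 70.8 to 90.8%) of ACP neurons and 23.1% (95% Wilson interval 13.7 to 36.1%) of laryngeal neurons (adjusted p = 1.01e-06). Uts2 was detected in 61.5% (95% Wilson interval 47.96 to 73.5%) of laryngeal and 9.43% (95% Wilson interval 4.10 to 20.2%) of ACP neurons (adjusted p = 1.89e-04). Of 53 ACP neurons, 40 held Uts2b alone and 1 held Uts2 alone. Of 52 laryngeal neurons, 22 held Uts2 alone, 2 held Uts2b alone, 10 held both and 18 neither. Adcyap1, the precursor of the peptide PACAP, was common to both groups and 3.34-fold higher on average in ACP neurons, at 0 to 18.8 counts per 10000 with a median of 2.95 against 0 to 9.63 with a median of 0.532 (adjusted p = 9.52e-04).

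The granins Scg2 and Chgb and a converting enzyme of dense-core vesicles were higher in ACP neurons. Scg2, secretogranin II, was detected in every ACP neuron and ran from 1.79 to 33.2 counts per 10000 with a median of 7.39, against 0 to 31.3 with a median of 1.69 in laryngeal neurons (89.5% of pairs, adjusted p = 7.62e-08). Chgb, chromogranin B, differed less, 2.18-fold in means (adjusted p = 0.0499). Pcsk1, the prohormone convertase PC1/3, was detected in 43 of 53 ACP and 15 of 52 laryngeal neurons (adjusted p = 6.54e-04). Chga and Vgf did not pass the test. Chga, chromogranin A, had medians of 4.87 in ACP and 7.76 counts per 10000 in laryngeal neurons (adjusted p = 1), and Vgf had medians of 0.366 and 0.571 (adjusted p = 1).

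The promoters of these 3 vesicle genes, and of the splicing regulator Celf6, hold the full palindrome of the cAMP response element, TGACGTCA, within 250 bases before the RefSeq start. They are shown because 4 of the 55 ACP-higher genes in the RefSeq promoter table of GRCm38.p6 (7.27%) held the palindrome, against 0 of 33 laryngeal-higher genes and 478 of all 27025 genes (1.77%). Here and below, all genes means every gene of the promoter table, whether or not it was tested in these neurons. Shares over the tested genes alone were not computed, so called genes and all genes are unlike sets. The palindrome reads the same on both strands and contains the core TGACG. Each 30-base window below is written 5′ to 3′ on the strand of its gene, with the palindrome in capitals.
Scg2: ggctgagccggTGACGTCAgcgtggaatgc
Chgb: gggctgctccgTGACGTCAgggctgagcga
Pcsk1: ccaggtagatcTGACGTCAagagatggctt
Celf6: tgctagctgtcTGACGTCActaagctcggg
The windows lie at chr1:79440076-79440105 (minus strand), chr2:132781559-132781588, chr13:75089768-75089797 and chr9:59578094-59578123 (all plus strand). The palindrome begins 68, 72, 78 and 232 bases before the RefSeq start. Except for that of Pcsk1, the windows fall inside the gene as GENCODE vM21 draws it, so they may be transcribed. The motif was 1 of 12 searched on both strands with the called genes in view, so its share is a description and is no evidence of binding. The core TGACG was in 18 of 55 ACP-higher genes (32.7%), 5 of 33 laryngeal-higher genes (15.2%) and 19.8% of all genes. For the others, shares in ACP-higher, laryngeal-higher and all genes were 9.09%, 6.06% and 6.05% for the sterol response element core CACNCCAC, and 43.6%, 45.5% and 37.5% for CCAAT. They were 7.27%, 0% and 5.65% for the homeodomain core TAATTA and 1.82%, 0% and 0.836% for the Onecut core ATCGAT. They were 0%, 3.03% and 1.30% for the T-box element AGGTGTGA, which contains the core AGGTGT with 7.27%, 12.1% and 13.6%. The E-box CAGCTG gave 18.2%, 18.2% and 14.7%, and the partial RE1 element CAGCACC 5.45%, 3.03% and 6.56%. The longer sterol response element and the paired homeodomain palindrome were in no called gene and in 0.226% and 0.533% of all genes.

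Transcription factors differed in 9 of 47 tested, 5 higher in ACP and 4 in laryngeal neurons, beside 0.928% of all genes tested. Onecut1 and Onecut3, homeodomain factors of the same family, were both low in level and concentrated in ACP neurons. Onecut1 was detected in 62.3% (95% Wilson interval 48.8 to 74.1%) of ACP neurons and 3 of 52 laryngeal neurons (adjusted p = 5.93e-05). Onecut3 was detected in 58.5% (95% Wilson interval 45.1 to 70.7%) and 3 of 52 (adjusted p = 2.97e-04). Their ACP means, 0.141 and 0.103 counts per 10000, amount to few reads, and the detection of Onecut1 fell to 41.5% of ACP neurons after thinning. Both calls ended after thinning (adjusted p = 0.161 for Onecut1 and 0.0582 for Onecut3). Both were found together in 23 ACP neurons and in 0 laryngeal neurons. In ACV neurons they were found in 5 of 98 and 4 of 98. The related Onecut2 did not pass, at 22 of 53 ACP and 29 of 52 laryngeal neurons (adjusted p = 1).

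Tbx3, a T-box repressor, ran from 0 to 3.35 counts per 10000 with a median of 0.541 in ACP and from 0 to 1.90 with a median of 0 in laryngeal neurons (adjusted p = 1.18e-05), while its paralog Tbx2 did not pass at 42 of 53 and 19 of 52 neurons (adjusted p = 0.178). Zfhx4, a large zinc-finger homeodomain factor, was 4.36-fold higher on average in ACP neurons (adjusted p = 8.48e-05), and its paralog Zfhx3 was 4.28-fold higher in laryngeal neurons (adjusted p = 0.00105). Phox2a, a homeodomain factor of hindbrain motor neurons, was higher in laryngeal neurons, found in 35 of 52 laryngeal and 17 of 53 ACP neurons (adjusted p = 0.0163). Phox2a lost its call without the 11 ACP neurons above 1800 counts of Apoe (adjusted p = 0.234). Lhx4, a LIM homeodomain factor of motor neurons, was detected in 57.7% (95% Wilson interval 44.2 to 70.1%) of laryngeal neurons and 13.2% (95% Wilson interval 6.55 to 24.8%) of ACP neurons (adjusted p = 0.0363), a call that ended after thinning (adjusted p = 0.456) and with Rn45s in the total (0.0589). Nfia, a factor of the nuclear factor I family, was 2.82-fold higher in laryngeal neurons (adjusted p = 0.0318). Of 12 Hox genes tested, Hoxb2 alone passed the test, found in 43 of 53 ACP and 15 of 52 laryngeal neurons (adjusted p = 0.00439), and it was not called by edgeR or DESeq2 except by edgeR with each neuron's share of detected genes as covariate. Hoxa5 was detected in 20 of 53 ACP, 19 of 52 laryngeal and 94 of 98 ACV neurons, with medians of 0, 0 and 3.56 counts per 10000.

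**Figure D3:**
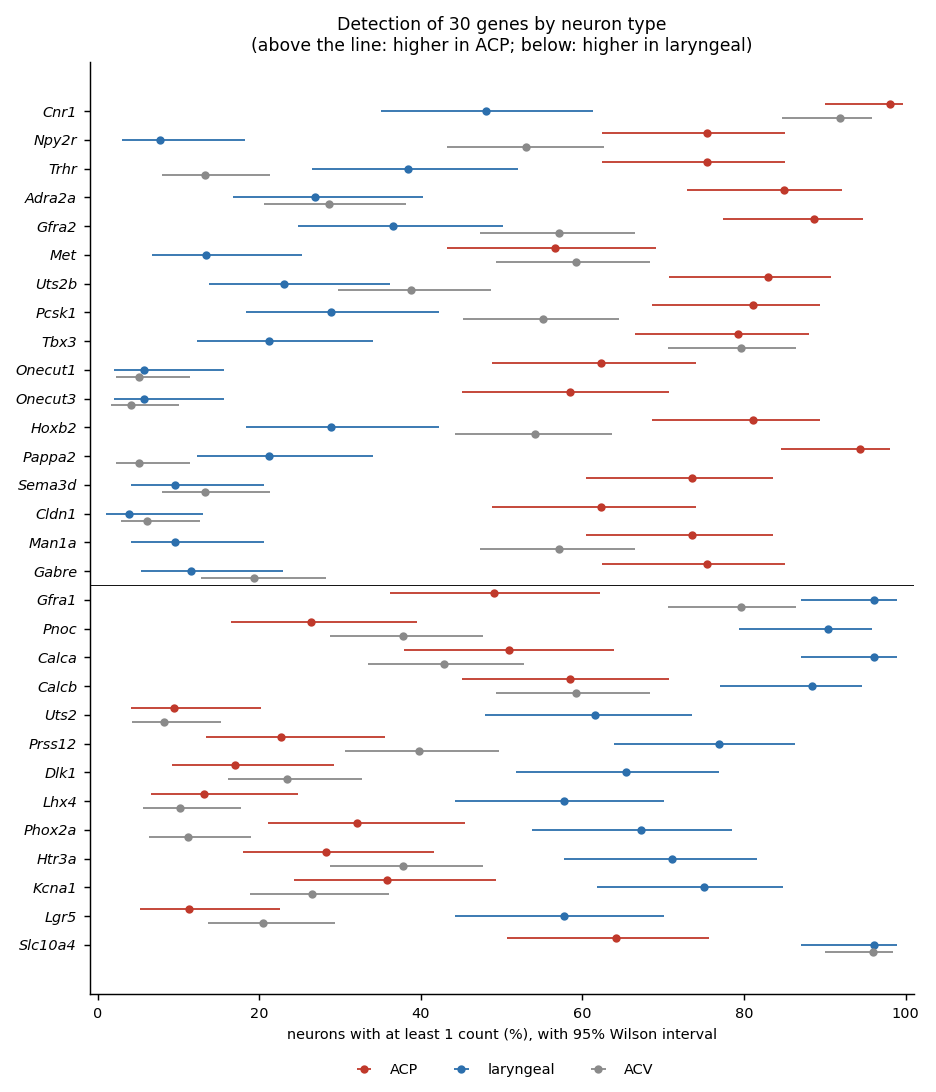
Share of neurons with at least 1 count (x axis, percent, with 95% Wilson intervals) of 30 genes in ACP (red), laryngeal (blue) and ACV neurons (gray), with genes higher in ACP above the line and genes higher in laryngeal neurons below it. Onecut1, Onecut3, Pappa2, Sema3d and Cldn1 are found mainly in ACP neurons, and the gray intervals of Cnr1, Met and Tbx3 overlap the red ones.

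Efna5, ephrin-A5, a membrane ligand that repels growing axons, was detected in every ACP neuron at 0.0464 to 7.95 counts per 10000 with a median of 2.63, against 0 to 4.84 with a median of 0.419 in laryngeal neurons (adjusted p = 1.52e-06). Sema3d, a secreted semaphorin, was found in 39 of 53 ACP and 5 of 52 laryngeal neurons (adjusted p = 2.67e-06). Ephb1, a receptor for B-type ephrins, was higher in laryngeal neurons, at 0 to 4.52 counts per 10000 with a median of 1.01 against 0 to 2.57 with a median of 0 (adjusted p = 0.00156). These were the 3 of 72 guidance genes that passed the test, beside 0.928% of all genes tested. Of 77 contactins, neurexins, teneurins and other synaptic adhesion genes, 5 were higher in ACP neurons, beside 0.573% of all genes tested, and 0 in laryngeal neurons. By the share of pairs, 41 leaned to ACP and 36 to laryngeal neurons. Cntn5, contactin 5, was 5.67-fold higher on average in ACP (adjusted p = 1.29e-04). Cntn4, contactin 4, was 5.29-fold higher (adjusted p = 0.00461). Nrxn3, a presynaptic neurexin, ran from 0.456 to 13.3 counts per 10000 with a median of 3.31 in ACP and from 0 to 6.86 with a median of 1.5 in laryngeal neurons (adjusted p = 0.00116), and Tenm1, which lies on the X chromosome (adjusted p = 0.00723), and Ncam2 (adjusted p = 0.0351) were nearer the threshold. Among 78 cadherins and protocadherins, Cdh8 (6.09-fold, adjusted p = 4.70e-05) and Pcdh18 (9.08-fold, adjusted p = 0.00138) were higher in ACP. Cdh22 (8.90-fold, adjusted p = 0.00972) and Pcdh8 (5.58-fold, adjusted p = 0.0165) were higher in laryngeal neurons.

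Genes known from alpha, gamma and neuromuscular motor neurons were higher in laryngeal neurons where they passed the test, in 5 of 32 tested (Dlk1, Calca, Gfra1, Nefh and Kcna1), with 0 higher in ACP. The median difference of the 32 was -0.132 on the ln scale, beside 0.00273 over all genes. The share of all genes tested that were higher in laryngeal neurons was 0.355%. The study also lists Dlk1, Calca, Gfra1 and Kcna1 as enriched in laryngeal neurons from these same libraries. These calls are therefore not independent evidence of the direction. Dlk1, a Notch-related membrane protein of fast motor neurons, was detected in 65.4% (95% Wilson interval 51.8 to 76.8%) of laryngeal neurons and 16.98% (95% Wilson interval 9.20 to 29.2%) of ACP neurons (adjusted p = 8.50e-04). Nefm and Nefh, the medium and heavy neurofilament chains that widen large axons, were higher in laryngeal neurons, Nefm at 2.27 to 103.6 counts per 10000 with a median of 31.4 against 1.42 to 42.7 with a median of 8.43 (adjusted p = 7.49e-05). Nefh ran from 0.674 to 20.4 counts per 10000 with a median of 7.26 in laryngeal and from 0 to 13.7 with a median of 2.62 in ACP neurons (adjusted p = 0.00851). The light chain Nefl did not pass (medians 90.5 in laryngeal and 45.6 counts per 10000 in ACP, adjusted p = 0.392). Nefl and Nefm overlap on opposite strands. The calls of Nefm and Nefh ended with Rn45s in the total (adjusted p = 1 for both), and that of Nefh also with edgeR TMM library sizes. Kcna1, the potassium channel Kv1.1, was found in 39 of 52 laryngeal and 19 of 53 ACP neurons (adjusted p = 0.0370), and Kcna5 (Kv1.5), on the same chromosome, in 6 of 52 and 30 of 53 (adjusted p = 0.0541). Of 68 potassium channel subunits, the other call was Kcnj12, the inward rectifier Kir2.2, 5.29-fold higher in ACP (adjusted p = 5.67e-04).

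Genes listed for visceral motor neurons were higher in ACP neurons in 10 of 20 tested, with 0 higher in laryngeal neurons and a median difference of 0.373. Over all genes tested, 0.573% were higher in ACP neurons. The list includes genes that the study chose from heart-labeled against laryngeal neurons of these same libraries, so it is not independent evidence of the direction. Beside those above, it held Celf6, a splicing regulator (5.17-fold, adjusted p = 4.42e-06), Dgkb, a diacylglycerol kinase (6.35-fold, adjusted p = 1.81e-04), and Maoa, which breaks down monoamines (4.49-fold, adjusted p = 3.49e-06). Dgkk, another diacylglycerol kinase, was 8.0-fold higher in laryngeal neurons (adjusted p = 2.56e-05) and lies on the X chromosome. Calb1, calbindin, by which the study stained ACP neurons, had medians of 1.18 counts per 10000 in ACP and 0 in laryngeal neurons and did not pass the test (adjusted p = 0.0881). Bche, butyrylcholinesterase, by which it stained ACV neurons, was found in 23 of 53 ACP, 5 of 52 laryngeal and 88 of 98 ACV neurons.

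Several called genes have roles outside these groups. Pappa2, a protease that cleaves insulin-like growth factor binding proteins (adjusted p = 6.85e-11), ran from 0 to 12.6 counts per 10000 with a median of 1.34 in ACP neurons and from 0 to 4.12 with a median of 0 in laryngeal neurons, and was found in 5 of 98 ACV neurons. Gpx3, the secreted glutathione peroxidase, was 4.12-fold higher in ACP (adjusted p = 1.99e-08). Fxyd6, a modulator of the sodium pump, was detected in every neuron of both groups and was 2.20-fold higher in ACP (adjusted p = 5.79e-08). Man1a, a Golgi mannosidase, was found in 39 of 53 ACP and 5 of 52 laryngeal neurons (adjusted p = 3.19e-07). Tm4sf4 and Mia2 had no read in 52 laryngeal neurons, which allows a share of neurons with a read of up to 5.77% (3 of 52), and were found in 29 of 53 and 22 of 53 ACP neurons and in 63 of 98 and 74 of 98 ACV neurons.

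In laryngeal neurons Gnas, the stimulatory G protein alpha subunit (chr2:174284320-174346744, plus strand), was detected throughout, at 13.9 to 84.1 counts per 10000 with a median of 39.9 against 3.15 to 39.99 with a median of 12.97 (adjusted p = 5.58e-09). Transcripts antisense to it overlap its exons, and the call ended with Rn45s in the total (adjusted p = 1). Timp3, an inhibitor of matrix metalloproteinases, was 18.7-fold higher in laryngeal neurons (adjusted p = 9.00e-07), and Prss12, the protease neurotrypsin, 21.3-fold higher (adjusted p = 1.12e-05). Among cholinergic genes, Slc10a4, a transporter of cholinergic synaptic vesicles, was found in 50 of 52 laryngeal and 34 of 53 ACP neurons and ran to 18.8 counts per 10000 in ACP neurons (adjusted p = 0.00441). Its call ended under 7 alternatives, among them edgeR, DESeq2 and Rn45s in the total (adjusted p = 0.109 in the last). Slc44a5, a choline transporter-like protein, was 5.13-fold higher in laryngeal neurons (adjusted p = 0.0327), and the other 8 of 10 cholinergic genes did not pass. Lars2, a mitochondrial leucyl-tRNA synthetase, was 2.64-fold higher in laryngeal neurons, but lost its call in neurons with under 60% of counts on Rn45s and with Rn45s in the total (adjusted p = 1 in both).

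Synaptic vesicle genes gave 3 calls of 64, beside 0.928% of all genes tested. Syt4 (2.4-fold, adjusted p = 0.0202) and Syt5 (3.27-fold, adjusted p = 2.39e-05), both synaptotagmins, were higher in ACP, and Syt2, a fast calcium sensor of transmitter release, was 3.81-fold higher in laryngeal neurons (adjusted p = 0.0111). Of 75 sodium, calcium, HCN, TRP and chloride channel subunits tested, 1 was higher in each group and 73 did not pass. The auxiliary subunit Cacna2d3 was 4.37-fold higher in ACP (adjusted p = 9.90e-05). Its call ended in neurons under 60% of counts on Rn45s (rank sum test, adjusted p = 0.0691). Cacng2, stargazin, which carries AMPA receptors to the synapse, was 4.41-fold higher in laryngeal neurons (adjusted p = 0.00101). Of 25 neuronal splicing regulators, Celf6 was higher in ACP and Rbfox1 2.86-fold higher in laryngeal neurons (adjusted p = 0.00113). Of 30 calcium-binding proteins, Tesc was 4.02-fold higher in laryngeal neurons (adjusted p = 0.0409), and of 32 immediate early and injury genes, Klf6 was 3.17-fold higher in ACP (adjusted p = 0.00176). Tesc, Slc44a5, Syt4, Syt2, Tenm1, Ncam2 and Pcdh8 lost their calls without the ACP neurons above 1800 counts of Apoe.

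Enzymes of cholesterol synthesis, examined after their values had been seen, passed the test in 3 of 21 genes, all higher in ACP, and 18 did not pass. Of all genes tested, 0.573% were higher in ACP. By the share of pairs 20 of the 21 leaned to ACP, beside 60.7% of all genes tested. Msmo1 was 3.80-fold higher in ACP (adjusted p = 3.29e-05) and Tm7sf2 2.64-fold higher (adjusted p = 8.13e-04). Insig1, which retains the sterol sensor in the endoplasmic reticulum, was 2.49-fold higher in ACP (adjusted p = 0.00226). Hmgcs1, an early enzyme of the pathway, had medians of 3.81 in ACP and 4.18 counts per 10000 in laryngeal neurons (adjusted p = 1). Acly, which makes the acetyl-CoA used for lipids, was higher in laryngeal neurons, at 0 to 31.9 counts per 10000 with a median of 11.9 against 0.0855 to 22.4 with a median of 3.94 (adjusted p = 0.00116). None of 81 cytosolic ribosomal protein genes and 88 nuclear oxidative phosphorylation genes passed the test.

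Seen neuron by neuron, the types were nearly but not wholly separate. A set of 8 genes higher in or named for ACP (Pappa2, Trhr, Calb1, Uts2b, Gfra2, Tbx3, Npy2r and Cnr1) was set beside the 8 laryngeal genes above. Both sets were chosen with these results known. In ACP neurons a median of 7 of the ACP set and 2 of the laryngeal set were detected, and in laryngeal neurons 2 and 7. More of the ACP set was detected in 50 of 53 ACP neurons, and more of the laryngeal set in 49 of 52 laryngeal neurons. By summed level the ACP set was the higher of the 2 in 48 of 53 ACP neurons and in 4 of 52 laryngeal neurons. In 2 ACP neurons the laryngeal set reached the range of most laryngeal neurons. Their summed levels were 6.88 for the ACP set and 7.18 for the laryngeal set in one, and 2.14 and 5.22 in the other. ACV neurons had medians of 4 and 3 genes. Over the 76 genes higher in ACP, the mean ACV level was nearer that of ACP neurons for 34 and nearer that of laryngeal neurons for 42. Over the 47 genes higher in laryngeal neurons, it was nearer that of ACP neurons for 41.

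**Figure D4:**
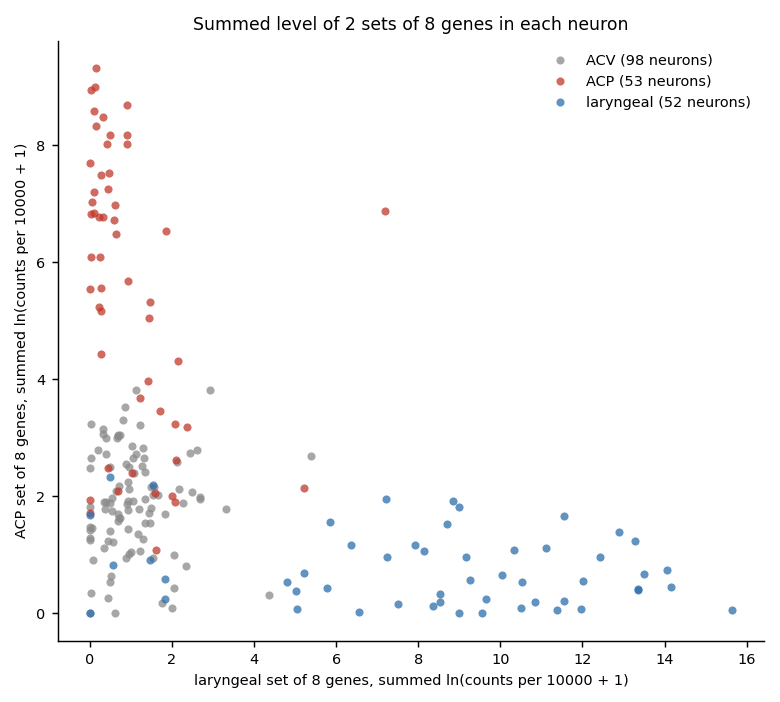
Summed ln(counts per 10000 + 1) of the 8 laryngeal genes (x axis) and the 8 ACP genes (y axis) in each ACP (red), laryngeal (blue) and ACV neuron (gray), each point 1 neuron. Of 52 laryngeal neurons, 44 lie at 4.81 or more on the x axis and 8 at 1.83 or less, and 2 ACP neurons lie at 5.22 and 7.18.

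The number of calls depended on the test and on the neurons included. The named genes past the threshold passed in these same neurons, which every alternative reuses. A kept direction below is therefore largely built in and is no independent evidence. Of the 86 named genes past the threshold, all 86 kept their direction without the neurons above 1800 counts of Apoe, where 75 passed, and in neurons under 60% of counts on Rn45s, where 61 passed. All 86 also kept it among the 18 ACP and 28 laryngeal neurons with a Y-linked read and no Xist read, where 11 passed. In the 26 ACP and 38 laryngeal neurons with at most 900 counts of Apoe, all 86 kept it and 32 passed. Grm5, Adra2a, Adcyap1, Kcnj12, Nrxn3 and Cntn4 were among those that did not pass there. Of these, Adcyap1, Kcnj12, Nrxn3 and Cntn4 also did not pass in neurons under 60% of counts on Rn45s. After thinning, all 85 that could be tested kept their direction and 76 passed. Phox2a, Kcna1, Slc44a5, Ncam2, Onecut1, Onecut3 and Lhx4 were among those that did not pass. With all heart-labeled neurons in place of ACP, Cntn4 reversed, to 49.8% of pairs. Calca, Cnr1, Gfra1, Gpx3, Npy2r, Pnoc and Timp3 passed under all 17 alternatives. With Rn45s in the total, 20 of the 86 calls ended, among them those of Acly, Cacng2, Zfhx3, Rbfox1, Syt2, Nfia, Kcna1, Pcdh8, Slc44a5 and Tesc, all higher in laryngeal neurons.

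**Figure D5:**
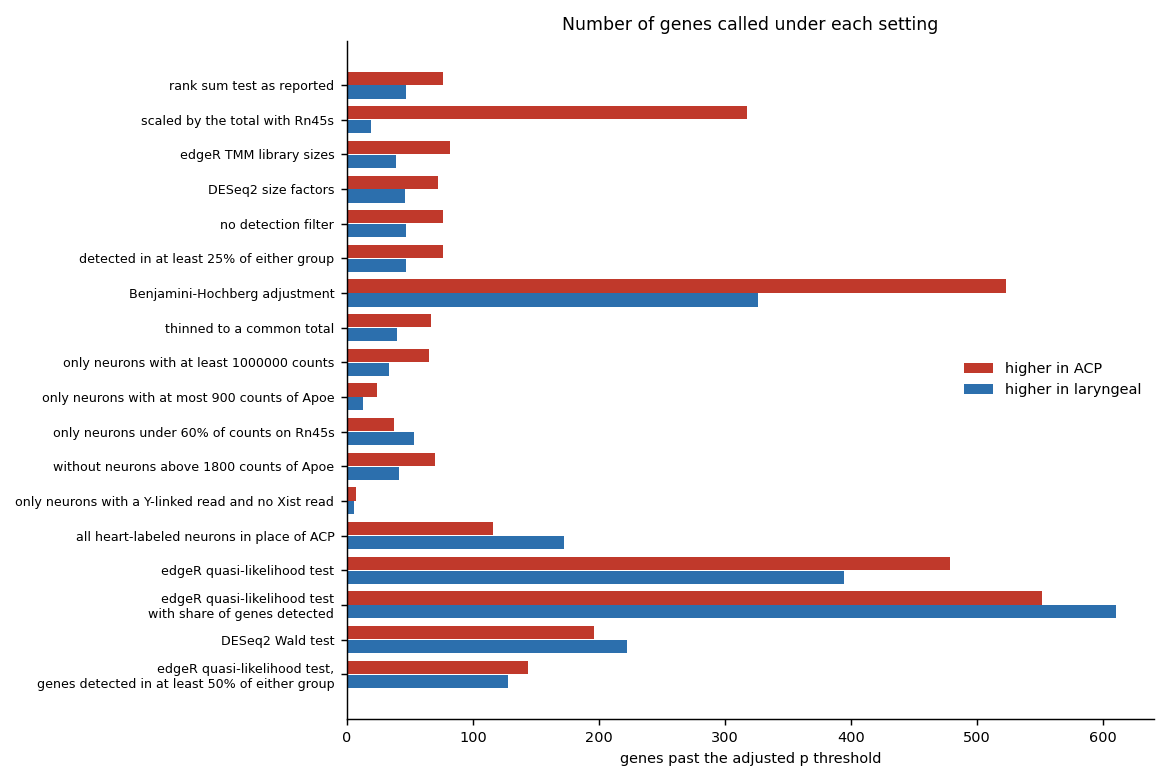
Number of genes past the adjusted p threshold (x axis) that were higher in ACP (red) or laryngeal neurons (blue) with the rank sum test as reported and under each of 17 alternatives. The counts as reported are 76 and 47, and they run from 7 and 6 in neurons with a Y-linked read and no Xist read to 551 and 610 with edgeR and each neuron's share of detected genes as covariate.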

How the data were processed

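Single neurons were sequenced by Smart-seq2. The authors trimmed reads with Skewer and aligned them to mm10 with STAR 2.6.1d in 2 passes. The deposited table holds raw counts of 24029 genes; the counting program, annotation and strand setting are not given in the sources used here. The authors' table named CPM was not used, because its columns have unequal sums. The neuron types and targets are those of the deposited annotation.

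Counts were divided by each neuron's total without Rn45s, multiplied by 10000, and analysed as ln(value + 1). Genes with a read in 10% or more of the ACP or laryngeal neurons were tested by a tie-corrected, two-sided rank sum test (scipy 1.17.1), Bonferroni-adjusted over all 24029 genes, with a threshold of 0.05. Fold differences are ratios of mean counts per 10000. Depth and quality measures were compared with 100000 permutations. Shares have 95% Wilson intervals. Alternatives changed the scaling, filter, adjustment, depth, neurons and test (edgeR 4.0.16 and DESeq2 1.42.0 in R 4.3.3). The rank sum test, edgeR and DESeq2 were tried on simulated data. The permutation test and edgeR with the share of detected genes as covariate were not.

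Genes named were the 10 with the smallest p in each direction, members of gene lists past the threshold (all where at most 6 passed, otherwise 3 in each direction), the genes the study names, and paralogs. Acly, Chat, Chga, Chgb, Cldn1, Hmgcs1, Insig1, Lars2, Maoa, Mia2, Msmo1, Nefl, Pcsk1, Tm4sf4, Tm7sf2, Vgf and Xist were named outside this rule, after their values were seen. Members and lists were chosen with earlier results of these data known. Gene positions are from GENCODE vM21 (GRCm38), and promoter sequences from RefSeq (GRCm38.p6). Some results are not reported here.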

Additional observations from a re-analysis of the deposited data

How the results depend on the processing

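As reported, 0.573% of genes tested were higher in ACP and 0.355% in laryngeal neurons (76 and 47 genes). With Rn45s kept in the total the shares were 2.39% and 0.143% (317 and 19 genes), so that 94.3% of calls rather than 61.8% were higher in ACP. They were 3.95% and 2.46% (523 and 326) with Benjamini-Hochberg adjustment, 0.180% and 0.0975% (24 and 13) in neurons with at most 900 counts of Apoe, 0.267% and 0.382% (37 and 53) in neurons under 60% of counts on Rn45s, and 0.879% and 1.30% (288 in all, 40.3% of them higher in ACP) with all heart-labeled neurons in place of ACP. edgeR's quasi-likelihood test gave 3.61% and 2.97% (478 and 394), the same test with each neuron's share of detected genes as covariate 4.16% and 4.60% (551 and 610), and the DESeq2 Wald test 1.48% and 1.67% (418 in all, 46.9% of them higher in ACP). A further 3 alternatives were chosen after seeing the data, the first of them, with TMMwsp scaling, from the simulated data. edgeR restricted to genes with a read in 50% or more of either group gave 1.72% and 1.53% (272 in all, 52.9% of them higher in ACP), neurons with a Y-linked read and no Xist read gave 0.0506% and 0.0433% (7 and 6 genes in 18 ACP and 28 laryngeal neurons), and leaving out neurons above 1800 counts of Apoe gave 70 and 41 genes. The cause of these changes was not tested. No called gene was called in the opposite direction under any of the 17 alternatives. Each alternative reuses neurons that gave the calls, so this is no independent evidence of direction.

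Of 1455 pairs of a named gene past the threshold and an alternative, 1202 kept direction and call and 252 kept direction only. The 1 reversal was Cntn4, at 49.78% of pairs (adjusted p = 1) with all heart-labeled neurons. In neurons with at most 900 counts of Apoe, the ACP minus laryngeal difference in Apoe was 20.6 counts (permutation test, adjusted p = 0.792), and that in glial and vascular markers was -0.133 percentage points (adjusted p = 0.0378). No paired analysis was possible because the replicate numbers only name single neurons and the labels tie no neurons of different types to 1 mouse.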
